A study of Homo sapiens with 9 samples.

Results

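The genes described here are 9 genes of the human complement system: the factors C3, CFB, CFI, C1R and C1S, the plasma inhibitor SERPING1, and the membrane regulators CD46, CD55 and CD59. They were chosen by name, with earlier results of these data known. Every probe set of the array that carried exactly 1 gene and belonged to one of them was taken. This gave 20 probe sets of 41091 single-gene probe sets and 9 genes of 19775. The cells were A549, an established human lung adenocarcinoma line, in 3 groups of 3 biological replicates, each on its own array: cells given an siRNA against Nrf2 at 25 nM, cells given a non-targeting siRNA (NS siRNA) at 25 nM, and mock cells that received the transfection reagent only. RNA was taken 96 h after transfection. The series asked which genes depend on NRF2, encoded by NFE2L2, a regulator of antioxidant genes. The labels name no other Nrf2 siRNA group and no rescue, so loss of NRF2 and an off-target effect of that siRNA cannot be told apart.

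Complement is a cascade of proteases and binding proteins that marks cells for uptake and can pierce their membranes. C1r and C1s are the proteases of the classical pathway and are held in check by the C1 inhibitor encoded by SERPING1. C3 is the component on which all pathways meet, and factor B, the product of CFB, joins its fragment C3b to form the convertase of the alternative pathway. Cells protect themselves with CD55, which speeds the decay of convertases, with CD46, a cofactor for the cleavage of C3b by the protease factor I (gene CFI), and with CD59, which blocks assembly of the membrane attack complex. CD55 and CD59 are held in the membrane by a GPI anchor, while CD46 spans it. Lung epithelial cells are known to make several of these proteins themselves.

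All levels below are log2 expression levels as deposited, errors are SD over 3 arrays or the model's SE as stated, and adjusted p-values come from 1 limma fit over all 41091 probe sets with Benjamini-Hochberg adjustment and a threshold of 0.05. "Rose" and "fell" are used for differences past that threshold. Array medians lay between 7.51 and 7.57, arrays of 1 group correlated at 0.998 to 0.999 across probe sets, and no array stood apart. The difference between 3' and 5' control probe sets of ACTB, a sign of RNA integrity, lay between -0.14 and -0.06 on all 9 arrays. The siRNA target NFE2L2, by its brightest probe set, averaged 10.25 ± 0.11 after Nrf2 siRNA, against 12.09 ± 0.06 after NS siRNA and 11.99 ± 0.08 in mock (SD, n = 3 each). That left 27.9% of the NS siRNA level and 30.0% of the mock level (limma adjusted p = 3.09e-10 and 1.01e-09). Of its other 2 probe sets, 1 fell to 45.2% and 50.2% of those levels and the dimmer one did not pass (92.9% and 95.4%). Precision is limited by having 3 arrays in each group. These are bulk cultures, so fewer cells of a kind and less RNA per cell cannot be told apart.

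After Nrf2 siRNA, the transcripts of all 3 membrane regulators, of CFI, of C3 and, by its brighter probe set, of CFB were higher than in both control groups, and C1S was lower than in both. C1R lay between the 2 control groups, and SERPING1 passed in no comparison. Against NS siRNA, 16 of the 20 probe sets rose and 2 fell. Over all probe sets 41.7% passed in that comparison, 20.2% higher and 21.5% lower. Against mock, 15 rose and 3 fell, where 28.6% of all probe sets passed, 15.2% higher and 13.3% lower. The median log2 difference of the 20 was 0.81 against NS siRNA and 0.68 against mock, beside medians of -0.04 and -0.01 over all probe sets. By the brightest probe set of each gene, 7 of the 9 genes rose and 1 fell against NS siRNA, where 45.1% of all 19775 genes passed, and 6 rose and 2 fell against mock, where 31.1% passed. Several of the 20 read the same transcript, so they are not independent of each other. The 9 genes were chosen with earlier results of these data known, so their shares beside those of all probe sets are a description. The 2 comparisons share the Nrf2 siRNA arrays.

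**Figure D1:**
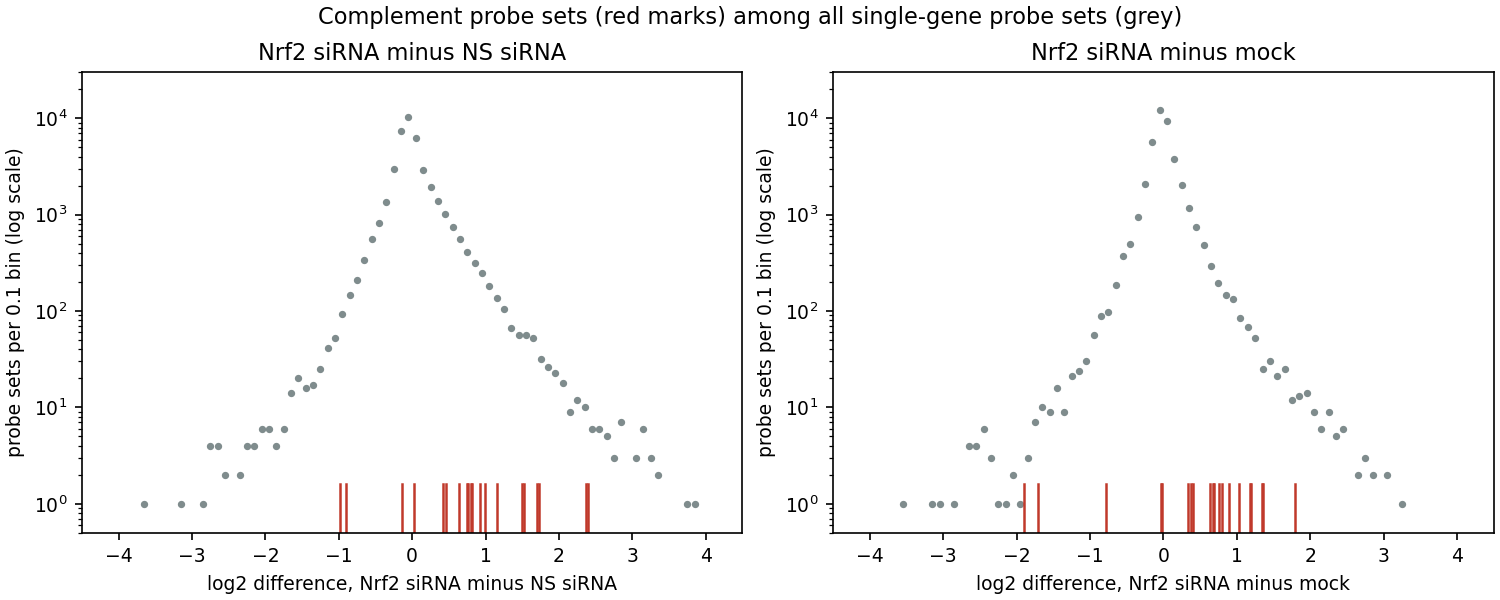
Log2 differences of Nrf2 siRNA minus NS siRNA (left) and Nrf2 siRNA minus mock (right) on the x axis, with the number of single-gene probe sets in bins 0.1 wide on a log y axis as grey points and the 20 complement probe sets as red marks. Most red marks lie right of 0, and those left of -0.5 are C1S in the left panel and C1R and C1S in the right panel.

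Promoter sequences of CFI, CD46, CD55 and CD59 are shown because each was read by more than 1 probe set and rose in all of them against both control groups. Sequences came from RefSeq (GRCh38.p14), in which 6 of the 9 genes were matched, with 11 annotated starts; C3, C1S and SERPING1 were not matched. Each runs 5' to 3' on the gene's strand over 250 bases before and 50 after the start. Capitals mark matches, on either strand, to the GC box GGGCGG, the CCAAT box, the AP-1 site TGANTCA, the TATA box TATAAA or the antioxidant response element core TGACNNNGC, the sequence to which NRF2 and its small MAF partners are known to bind. The last and the AP-1 site can share bases. Of CD46 and CD59, which have several annotated starts, 1 and 2 are printed. Another CD59 window (chr11:33722900-33723199), which overlaps the printed downstream window, held 0 AP-1 matches and is not printed.
CFI (chr4:109801950-109802249, minus strand): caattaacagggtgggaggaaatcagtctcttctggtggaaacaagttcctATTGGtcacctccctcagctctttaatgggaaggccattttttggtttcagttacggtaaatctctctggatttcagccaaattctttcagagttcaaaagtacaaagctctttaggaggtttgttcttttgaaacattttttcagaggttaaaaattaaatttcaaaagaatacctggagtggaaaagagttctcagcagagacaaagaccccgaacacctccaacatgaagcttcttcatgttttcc
CD46 (chr1:207751788-207752087, plus strand): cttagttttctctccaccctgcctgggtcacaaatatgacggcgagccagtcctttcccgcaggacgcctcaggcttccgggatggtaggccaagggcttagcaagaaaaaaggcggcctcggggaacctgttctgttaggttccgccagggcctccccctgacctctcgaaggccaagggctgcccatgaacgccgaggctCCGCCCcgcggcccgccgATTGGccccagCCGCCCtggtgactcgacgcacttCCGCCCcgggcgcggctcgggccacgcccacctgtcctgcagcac
CD55 (chr1:207321428-207321727, plus strand): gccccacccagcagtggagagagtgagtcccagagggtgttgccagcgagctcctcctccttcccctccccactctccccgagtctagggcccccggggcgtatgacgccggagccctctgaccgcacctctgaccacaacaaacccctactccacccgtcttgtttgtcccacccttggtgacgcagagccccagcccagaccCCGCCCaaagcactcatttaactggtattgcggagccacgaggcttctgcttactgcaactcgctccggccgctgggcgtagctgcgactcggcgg
CD59, upstream start (chr11:33736430-33736729, minus strand): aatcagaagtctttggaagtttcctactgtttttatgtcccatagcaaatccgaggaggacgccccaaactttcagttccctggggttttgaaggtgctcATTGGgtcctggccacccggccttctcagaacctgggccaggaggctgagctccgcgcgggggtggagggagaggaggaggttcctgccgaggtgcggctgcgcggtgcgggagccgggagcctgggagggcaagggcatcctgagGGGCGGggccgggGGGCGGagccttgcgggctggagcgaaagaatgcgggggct
CD59, downstream start (chr11:33722678-33722977, minus strand): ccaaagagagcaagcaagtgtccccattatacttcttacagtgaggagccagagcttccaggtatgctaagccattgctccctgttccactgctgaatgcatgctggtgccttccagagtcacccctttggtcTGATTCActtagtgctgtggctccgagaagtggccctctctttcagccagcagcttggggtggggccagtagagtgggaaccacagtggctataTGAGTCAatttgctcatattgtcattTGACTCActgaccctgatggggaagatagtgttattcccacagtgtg

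The CFI window held 1 CCAAT box and had a GC content of 39.3%. A CCAAT box was in 6 of the 11 windows of the 6 genes and in 34.6% of all 35116 promoter windows. The 6 were all windows of CFI, CD46 or CD59. Windows of CD46 and of CD59 overlap, so 1 box can be counted in more than 1 window, and the 11 are not independent. The CD46, CD55 and upstream CD59 windows had GC contents of 67.0%, 65.0% and 64.3% and held 3, 1 and 2 GC boxes. That motif was found in 5 of the 11 windows, all of CD46, CD55 or CD59, and in 45.0% of all. The printed downstream CD59 window held 3 matches to the AP-1 letters TGANTCA, where N is any base. It was the only 1 of the 11 with such a match, which 7.71% of all windows hold. The letters of the antioxidant response element core were in 0 of the 11 windows of these genes and in 13.3% of all windows. These are matches of letters in short windows, and binding was not measured.

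C3, the central component, was at 11.22, 11.26 and 11.24 after Nrf2 siRNA, against 10.79, 10.76 and 10.78 after NS siRNA and 10.58, 10.70 and 10.52 in mock. The Nrf2 siRNA arrays lay above all 6 control arrays, with a narrow spread inside each group. C3 rose by 0.46 ± 0.05 (SE) or 1.38-fold against NS siRNA (limma adjusted p = 1.08e-05) and by 0.64 ± 0.05 or 1.56-fold against mock (adjusted p = 1.29e-06). It was also higher in NS siRNA than in mock, by 0.17 ± 0.05 (adjusted p = 0.0262), a call that was lost in 7 of 20 alternative settings, with adjusted p between 0.00526 and 0.109 over all of them. It was lost without mock replicate 1 (0.0818) or 3 (0.109) and without NS siRNA replicate 1 (0.0732), 2 (0.0539) or 3 (0.0644).

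CFB, which encodes the protease of the alternative pathway convertase, was read by 2 probe sets that did not move alike. The brighter one stood at 8.41, 8.64 and 8.58 after Nrf2 siRNA, against 7.90, 7.91 and 7.93 after NS siRNA and 7.82, 7.86 and 7.89 in mock. All 3 Nrf2 siRNA arrays lay above the 6 controls, and the 2 control groups were close to each other. It rose 1.55-fold relative to NS siRNA and 1.61-fold relative to mock (limma adjusted p = 2.13e-06 and 2.07e-06), whereas NS siRNA and mock differed by 0.06 ± 0.06 (SE, adjusted p = 0.544). The dimmer probe set averaged 7.49 after Nrf2 siRNA, 7.64 after NS siRNA and 7.52 in mock, with overlapping arrays. Its differences of -0.14 ± 0.08 and -0.03 ± 0.08 (SE) did not pass (adjusted p = 0.173 and 0.84), and its mean level lay below the median of 7.82 over all single-gene probe sets.

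CFI, the protease that cuts C3b and C4b, rose in both of its probe sets against both control groups. Its brighter probe set gave 9.54, 9.52 and 9.58 after Nrf2 siRNA, against 7.70, 7.88 and 7.86 after NS siRNA and 8.22, 8.17 and 8.18 in mock. The 3 groups did not overlap, with Nrf2 siRNA highest and NS siRNA lowest. CFI reached 3.32 times the NS siRNA level (1.73 ± 0.06 SE, log2, limma adjusted p = 1.58e-10) and 2.56 times the mock level (1.35 ± 0.06, adjusted p = 2.56e-09). The dimmer probe set stood at 8.75, 8.87 and 8.95 after Nrf2 siRNA, against 6.57, 6.25 and 6.55 after NS siRNA and 6.97, 7.14 and 7.07 in mock. It gave 5.27-fold and 3.46-fold, and 5.27 was the largest fold of the 20 probe sets against NS siRNA. Its control levels lay below the median of all probe sets, and detection calls were not used here. The brighter probe set averaged 7.81 in NS siRNA, just under that median of 7.82. NS siRNA was lower than mock in both probe sets, by 0.38 and 0.61 on the log2 scale (differences of -0.38 ± 0.06 and -0.61 ± 0.08 SE, adjusted p = 0.00022 and 0.000151).

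**Figure D2:**
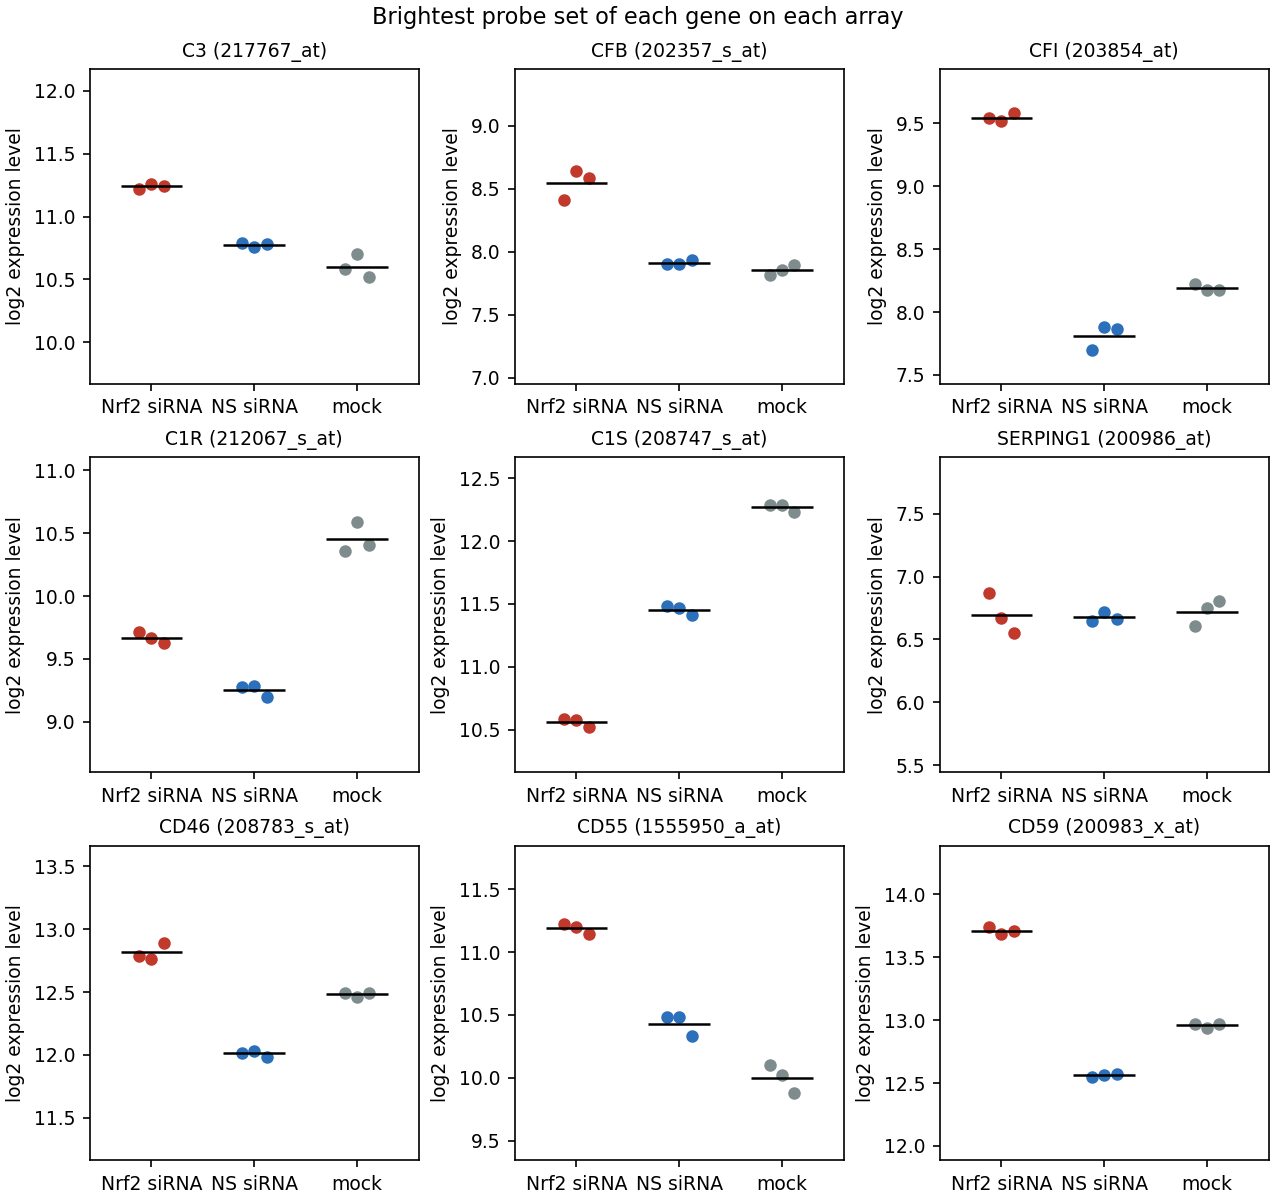
Log2 expression level (y axis, each panel spanning 2.5 units) of the brightest probe set of each of the 9 genes on the 3 Nrf2 siRNA, 3 NS siRNA and 3 mock arrays, with a bar at each group mean. CFI, CD46 and CD59 were highest after Nrf2 siRNA and lowest after NS siRNA, C1S was lowest after Nrf2 siRNA, and SERPING1 overlapped between groups.

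CD59, the inhibitor of the membrane attack complex, rose in all 5 of its probe sets against both control groups. Its brightest probe set was at 13.74, 13.69 and 13.71 after Nrf2 siRNA, against 12.55, 12.57 and 12.57 after NS siRNA and 12.97, 12.94 and 12.97 in mock, so that the 3 groups stood apart. That was a rise of 2.22-fold against NS siRNA (1.15 ± 0.04 SE, log2, limma adjusted p = 5.67e-10) and 1.69-fold against mock (0.75 ± 0.04, adjusted p = 5.20e-08). The other 4 probe sets gave log2 differences between 1.49 and 2.37 from NS siRNA and between 0.68 and 1.03 from mock. The brightest gave the smallest difference of the 5 against NS siRNA, and the dimmest (means of 9.01 after Nrf2 siRNA, 6.64 after NS siRNA and 7.98 in mock) the largest, at 2.37 ± 0.13 (SE). Its brightest probe set carries the suffix _x_at, given to sets that can read similar transcripts. The other 4 do not carry that suffix, though some carry _s_at, and its absence does not show that they read CD59 alone. NS siRNA was lower than mock in all 5, by differences between -1.34 and -0.40.

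CD46, the transmembrane cofactor for factor I, rose in all 3 of its probe sets against both control groups. The brightest stood at 12.79, 12.77 and 12.89 after Nrf2 siRNA, against 12.02, 12.03 and 11.99 after NS siRNA and 12.49, 12.46 and 12.49 in mock. It rose 1.75-fold against NS siRNA (0.80 ± 0.05 SE, log2, limma adjusted p = 3.64e-08) and 1.26-fold against mock (0.33 ± 0.05, adjusted p = 0.000178). The 3 groups did not overlap. Across its 3 probe sets the rise ranged between 1.75-fold and 1.98-fold against NS siRNA and between 1.26-fold and 1.32-fold against mock. The second brightest carries the suffix _x_at, given to sets that can read similar transcripts, and the others carry _s_at. NS siRNA was lower than mock in all 3, by log2 differences between -0.59 and -0.47 (largest adjusted p = 1.19e-05).

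CD55, the decay-accelerating factor, also rose in all 3 of its probe sets, and here the larger difference was that from mock. The brightest gave 11.22, 11.20 and 11.14 after Nrf2 siRNA, against 10.48, 10.48 and 10.33 after NS siRNA and 10.10, 10.03 and 9.88 in mock. The groups did not overlap, and the order was Nrf2 siRNA, NS siRNA, mock from high to low, unlike CD46 and CD59, where NS siRNA was lowest. CD55 rose 1.69-fold against NS siRNA (0.76 ± 0.06 SE, log2, limma adjusted p = 9.07e-07) and 2.28-fold against mock (1.19 ± 0.06, adjusted p = 3.36e-08). The 3 probe sets ranged between 1.67-fold and 1.76-fold against NS siRNA and between 2.26-fold and 2.54-fold against mock. NS siRNA was 1.35-fold to 1.45-fold higher than mock in them.

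C1S, the protease of the C1 complex that cuts C4 and C2, went the other way. Its brighter probe set stood at 10.59, 10.58 and 10.52 after Nrf2 siRNA, against 11.49, 11.47 and 11.41 after NS siRNA and 12.28, 12.29 and 12.23 in mock. The groups were far apart relative to their spread, with Nrf2 siRNA lowest and mock highest. C1S fell, with differences of -0.89 ± 0.05 (SE, log2) against NS siRNA (limma adjusted p = 1.01e-08) and -1.71 ± 0.05 against mock (adjusted p = 1.10e-10), which left 53.8% of the NS siRNA level and 30.6% of the mock level. The dimmer probe set fell too, with differences of -0.99 and -1.90. NS siRNA was itself lower than mock in both probe sets, by differences of -0.81 and -0.91 (adjusted p = 8.28e-08 and 9.06e-08).

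C1R, the partner protease that activates C1s, differed in opposite directions from the 2 controls. Its only probe set gave 9.71, 9.67 and 9.63 after Nrf2 siRNA, against 9.28, 9.29 and 9.20 after NS siRNA and 10.36, 10.59 and 10.41 in mock. It rose 1.33-fold against NS siRNA (0.42 ± 0.06 SE, log2, limma adjusted p = 0.000119) and fell by 0.78 ± 0.06 against mock (adjusted p = 9.43e-07). The difference between the controls was the larger one, with NS siRNA at -1.20 ± 0.06 relative to mock (adjusted p = 3.68e-08). C1R and C1S lie next to each other in the RefSeq annotation, with 0 genes between them; against NS siRNA they passed in opposite directions, and against mock both fell.

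SERPING1, the inhibitor of C1r and C1s, was dim. Its probe set gave 6.87, 6.67 and 6.55 after Nrf2 siRNA, against 6.65, 6.72 and 6.66 after NS siRNA and 6.60, 6.75 and 6.81 in mock, with the 3 groups overlapping. The differences of 0.02 ± 0.08 against NS siRNA and -0.02 ± 0.08 against mock (SE, log2) did not pass (limma adjusted p = 0.84 and 0.872). The mean level stood at the 26.3rd percentile of all single-gene probe sets; detection calls were not used here, and a change below background would not be seen.

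**Figure D3:**
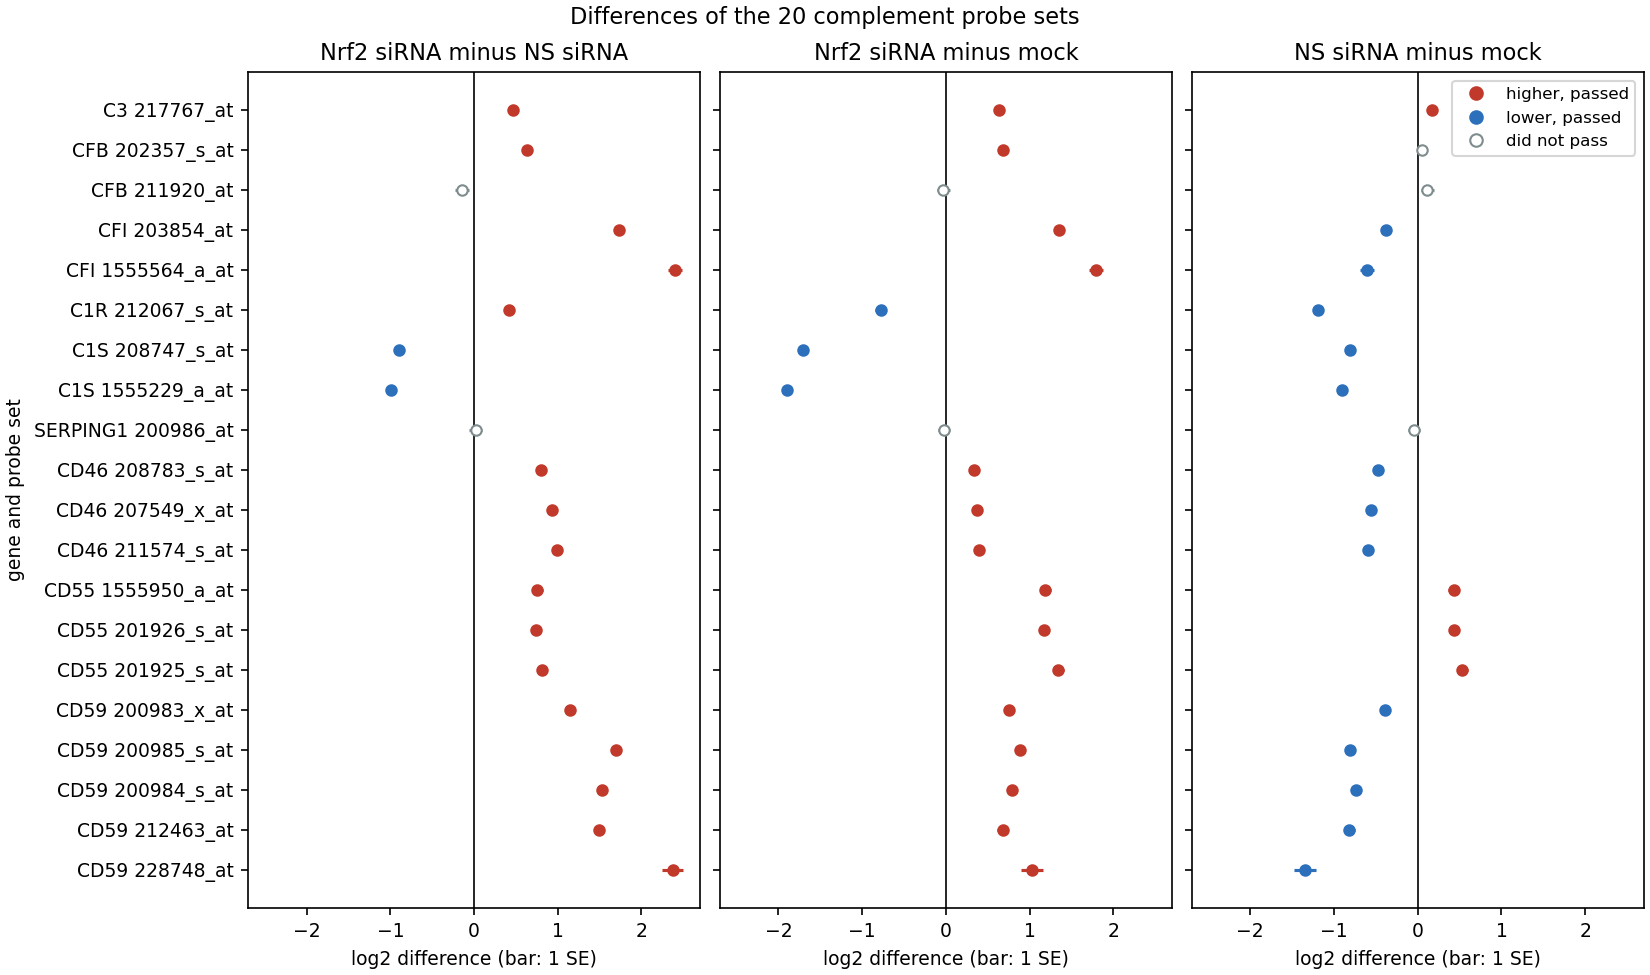
Log2 differences (x axis, bars are 1 SE of the model) of the 20 probe sets of the 9 genes for Nrf2 siRNA minus NS siRNA, Nrf2 siRNA minus mock and NS siRNA minus mock; filled points passed an adjusted p of 0.05. CFI, CD46, CD55 and CD59 lie right of 0 in the first 2 panels in every probe set and C1S left of 0, while in the third panel CD55 lies right of 0 and CFI, CD46 and CD59 left.

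Set over arrays rather than means, the 3 Nrf2 siRNA arrays lay above all 6 control arrays in 15 of the 20 probe sets and below all 6 in 2, the pair of C1S. Among all probe sets 14.3% lay above and 14.0% below. The 3 that overlapped were those of C1R, SERPING1 and the dimmer CFB probe set. The same 15 and 2 probe sets passed with 1 sign against both controls, which 11.7% of all probe sets did upward and 9.58% downward. With a difference of 2-fold or more, 7 probe sets passed against NS siRNA and 8 against mock, where 2.57% and 1.33% of all probe sets did.

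The non-targeting siRNA itself was accompanied by changes of most of these genes. By the brightest probe set, 2 of the 9 genes rose and 5 fell after NS siRNA relative to mock, where 28.4% of all genes passed. Against mock, 4 of the 20 probe sets were higher after NS siRNA and 13 lower, where 25.9% of all probe sets passed, 12.4% higher and 13.5% lower. The 4 were the CD55 probe sets and C3, and the 13 were those of CFI, C1R, C1S, CD46 and CD59. The median difference was -0.52, beside 0.03 over all probe sets. For CFI, CD46 and CD59 the Nrf2 siRNA level was therefore further from NS siRNA than from mock, and for C1S, CD55 and C3 it was further from mock.

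Other genes of the complement system were read through the brightest probe set of each gene. Of 50 listed, 43 were measured here, 14 of them above the median level of all single-gene probe sets; the other 7 were not analysed here. Against NS siRNA 8 of the 43 rose and 6 fell, beside 20.4% and 24.7% of all 19775 genes, and the list median was -0.07 beside -0.05 over all genes. Against mock 7 rose and 4 fell, beside 15.6% and 15.5%, with medians of -0.05 and -0.02. The shares of the list were close to or below those of all genes, and the C1q chains and the terminal components C6 to C9 did not pass against NS siRNA. Against mock C6 rose by 0.15 (limma adjusted p = 0.0496), and the others of these did not pass.

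The largest rises by the brightest probe set were those of C4BPA, C5 and THBD. C4BPA, the alpha chain of the C4b-binding protein, a soluble cofactor for factor I, averaged 9.95 after Nrf2 siRNA, against 8.48 after NS siRNA and 8.43 in mock (1.47 and 1.52 log2, limma adjusted p = 3.90e-08 and 6.35e-08). C5, from which the membrane attack complex starts, averaged 10.68, against 9.41 and 9.60 in NS siRNA and mock (1.27 and 1.09, adjusted p = 3.32e-08 and 2.95e-07). THBD, thrombomodulin, an endothelial anticoagulant receptor that also dampens complement, averaged 12.18, against 11.08 and 11.56 (1.10 and 0.62, adjusted p = 1.42e-08 and 4.89e-06), and all 3 of its probe sets rose. SUSD4, a membrane protein with complement control repeats, rose by 0.67 against NS siRNA and 0.35 against mock by its brightest probe set. All 3 of its probe sets rose against both controls but disagreed in size. The dimmest, below the median level in every group, gave 1.47 against NS siRNA and 0.96 against mock.

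C1QBP, a mitochondrial protein that also binds C1q, fell by 0.52 against NS siRNA and by 0.31 against mock, in both of its probe sets. CLU, clusterin, a chaperone that blocks the terminal pathway in fluid phase, fell by 0.41 and by 0.20, with 2 of its 4 probe sets falling against NS siRNA and the other 2 not passing.

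**Figure D4:**
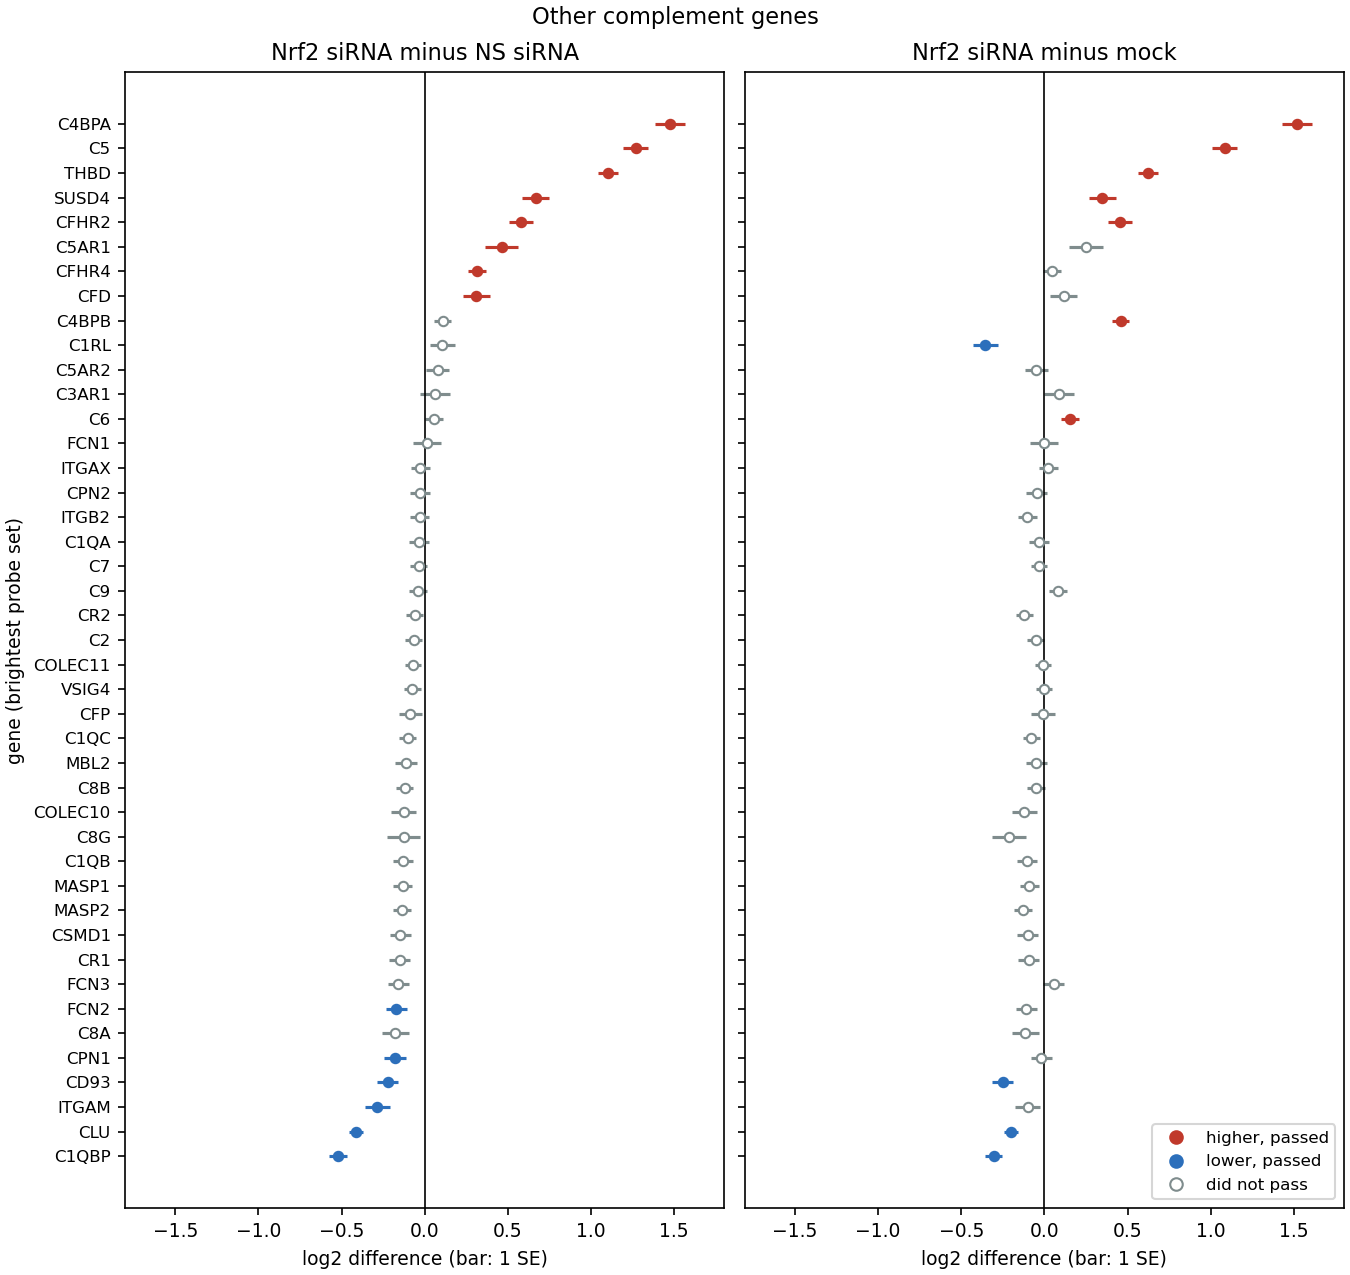
Log2 differences (x axis, bars are 1 SE of the model) of the brightest probe set of the 43 other complement genes measured, for Nrf2 siRNA minus NS siRNA and Nrf2 siRNA minus mock, in the order of the first panel; filled points passed an adjusted p of 0.05. C4BPA, C5 and THBD lie furthest right and C1QBP and CLU furthest left against NS siRNA.

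CD55 and CD59 need a GPI anchor to stay in the membrane, so the enzymes that build and attach it were counted as well. Of 27 measured genes 7 rose and 11 fell against NS siRNA, beside 20.4% and 24.7% of all genes. Against mock 1 rose and 8 fell, beside 15.6% and 15.5%. The list medians were -0.08 and -0.03, beside -0.05 and -0.02 over all genes. PIGW, which acylates the inositol of the anchor, averaged 8.42 after Nrf2 siRNA, against 9.42 after NS siRNA and 9.14 in mock (50.1% of the NS siRNA level and 60.7% of the mock level, limma adjusted p = 3.90e-09 and 1.50e-07). PIGH, a subunit of the enzyme of the first step, rose by 0.64 against NS siRNA and differed by 0.07 from mock (adjusted p = 0.395). PIGL, the deacetylase of the second step, was at -0.51 against NS siRNA and 0.09 against mock (adjusted p = 3.93e-06 and 0.219), and 2 of its 5 probe sets fell against NS siRNA. PIGN, an ethanolamine phosphate transferase, was at 0.43 and 0.11, PIGK, a subunit of the transamidase, at 0.36 and 0.02, and DPM3, a subunit of the mannose donor synthase, at -0.47 and -0.21. Of these 6, PIGW and DPM3 passed against both controls.

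Transcription of C3, CFB, C1S, C1R and SERPING1 is known to answer to interleukin 6, interleukin 1 and interferon gamma, and 19 of 20 listed genes of cytokine signalling, tumour necrosis factor and its receptor included, were measured. Against NS siRNA 5 rose and 6 fell, beside 20.4% and 24.7% of all genes. Against mock 7 rose and 3 fell, beside 15.6% and 15.5%. The list medians were -0.02 and 0.07, beside -0.05 and -0.02 over all genes. The transcription factors CEBPB and CEBPD, which act in the acute phase response, moved apart. CEBPB averaged 12.53 after Nrf2 siRNA, against 13.54 after NS siRNA and 13.56 in mock (-1.01 and -1.03 log2, limma adjusted p = 2.58e-09 and 4.48e-09). CEBPD averaged 12.01, against 11.37 and 11.08 (0.64 and 0.93, adjusted p = 4.18e-07 and 3.13e-08). IL6ST, the signalling chain of the interleukin 6 receptor, and IL1R1, the interleukin 1 receptor, rose by 0.89 and 0.93 against NS siRNA but were at -0.02 and 0.07 against mock (adjusted p = 0.882 and 0.334). SOCS3, the feedback inhibitor of interleukin 6 signalling, was at -0.38 against NS siRNA and -0.08 against mock by its brightest probe set (limma adjusted p = 0.000457 and 0.427). Its 4 probe sets disagreed in size: 3 fell against NS siRNA, the largest difference was -1.49, and that probe set also fell against mock (-0.45, adjusted p = 0.00065). IL6 itself, dim at 6.44 after Nrf2 siRNA, 6.77 after NS siRNA and 6.64 in mock, fell by 0.32 and by 0.20.

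The member probe set with the largest difference was the dimmer one of CFI, and the genes whose centred log2 profile over the 9 arrays lay closest to it were FRAS1, HLA-DMA and SPINK6. Their root mean square differences from it were 0.10, 0.14 and 0.15. FRAS1, an extracellular matrix protein of basement membranes, averaged 10.00 after Nrf2 siRNA, against 7.62 after NS siRNA and 8.22 in mock. HLA-DMA, a chaperone of class II antigen presentation, averaged 10.28, against 8.17 and 8.75. SPINK6, an inhibitor of kallikrein proteases, averaged 12.07, against 9.58 and 10.40. Likeness to CFI chose these genes, so their order of groups is a description, and the points share the same 9 arrays.

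The labelled cell type was checked against its markers. The keratins KRT8 and KRT18 averaged at least 14.17 in every group. Of 6 epithelial markers 3 rose and 1 fell against NS siRNA, and 4 rose and 1 fell against mock. For this and the lists that follow, 20.4% of all genes rose and 24.7% fell against NS siRNA, and 15.6% and 15.5% against mock. KRT19, a keratin, averaged 12.61 after Nrf2 siRNA, against 11.46 after NS siRNA and 10.66 in mock. EPCAM, an epithelial adhesion molecule, averaged 9.83, against 9.34 and 8.63, and CDH1, E-cadherin, averaged 10.00, against 9.53 and 9.07. These 3 rose against both controls, whereas KRT7 fell against both, at 13.60 against 13.77 and 13.81. Of 5 leukocyte markers 1 rose against both controls, CD14, at 8.83 after Nrf2 siRNA, against 7.87 after NS siRNA and 7.84 in mock. The leukocyte marker PTPRC stood at 7.26, 7.26 and 7.13 in the same order, below the median of all probe sets, and did not pass. The summed level of the leukocyte list, as log2 of the sum, lay between 9.75 and 9.94 after Nrf2 siRNA, between 9.42 and 9.51 after NS siRNA and between 9.36 and 9.44 in mock. Of 6 fibroblast markers 4 rose against NS siRNA, LUM, COL3A1, COL1A1 and THY1, and 3 against mock, where COL1A1 did not pass (0.18, limma adjusted p = 0.195). COL1A1, a collagen chain and the brightest of the list, averaged 11.24 after Nrf2 siRNA, against 10.12 after NS siRNA and 11.06 in mock. LUM, a matrix proteoglycan with the largest difference of the list, averaged 9.32 after Nrf2 siRNA, against 6.31 after NS siRNA and 7.02 in mock. The summed level of the fibroblast list lay between 12.02 and 12.24 after Nrf2 siRNA, between 11.02 and 11.09 after NS siRNA and between 11.54 and 11.82 in mock, while COL1A2 and DCN did not pass. Of 4 endothelial markers 1 passed, CDH5 against mock (0.23, limma adjusted p = 0.0381), and it was at 0.19 against NS siRNA (adjusted p = 0.056). Of 4 hepatocyte markers 1 rose and 1 fell against NS siRNA, TTR and SERPINA1, and TTR also rose against mock. ALB was at 5.65 to 5.72 in the 3 groups. The part of these lists in the complement values was not tested.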

How the data were processed

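Expression in 9 A549 cultures was measured on oligonucleotide arrays of 54675 probe sets. The authors deposited log2 expression levels; RMA, which also normalizes between arrays, is named in the submitters' processing notes, and its version is not given in the sources used. RMA can give 2 arrays the same value: 2.04% to 4.58% of values were equal between any 2 arrays within 1e-09. Detection calls and scan dates were not used here.

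Probe sets with exactly 1 gene in the array's annotation were kept (41091; 62 control, 1801 several-gene and 11721 unnamed probe sets stayed out). Of these, 41037 were matched to RefSeq genes (GRCh38.p14) to update symbols. All 9 columns were matched by accession and 0 were left unused. One limma 3.58.1 fit in R 4.3.3 (lmFit, eBayes, 3 group means, no filter, 6 residual degrees of freedom) gave all comparisons, two-sided, adjusted by Benjamini-Hochberg over the 41091 probe sets. For lists of genes the probe set with the highest mean stood for its gene. The fit was tested on simulated data. Figures were drawn with matplotlib 3.10.9.

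The members and gene lists were chosen with earlier results of these data known. Named genes were NFE2L2, every probe set of the 9 genes, from each list at most 6 genes, taken by smallest adjusted p of Nrf2 siRNA against NS siRNA, other complement genes changed 2-fold or more, and the 3 genes most like the member with the largest difference against NS siRNA; the marker genes are those of fixed lists. Alternatives were rescaling to equal medians, quantile normalization, a filter at the median level, leaving out probe sets with the suffix _x_at, and 1 value per gene (brightest or mean). Further ones were trend and robust variances, an unmoderated test, a fit of the compared groups only and a block for replicate number. The last were omission of each array in turn and an adjusted p of 0.01.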

Additional observations from a re-analysis of the deposited data

How the results depend on the processing

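Of 1122 values of the 20 probe sets under 20 alternatives, 1110 kept their direction and their side of the threshold, 7 were weaker and 5 changed sign. Many alternatives could not change a log2 difference, such as those that alter only the test, the threshold or the probe sets kept. The same holds for omission of an array of the group not compared. There the direction was fixed in advance, and only the side of the threshold could change. The 7 were all C3 in NS siRNA against mock, including 0.15 with equal array medians (limma adjusted p = 0.0741). The sign changes were of differences that passed in no setting: with arrays left out in turn, SERPING1 ranged between -0.0643 and 0.0944 against NS siRNA and between -0.109 and 0.050 against mock, and the dimmer CFB probe set between -0.0983 and 0.0589 against mock. In NS siRNA against mock, 1 gene was higher instead of 2 with equal array medians and 1 at an adjusted p of 0.01, and between 1 and 2 genes (3 and 4 probe sets) when arrays were left out in turn. When probe sets were averaged per gene, 2 GPI anchor genes instead of 1 rose against mock, and 5 cytokine signalling genes instead of 3 fell. The cause was not tested.

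Whether replicate numbers pair the arrays was not settled. Deviations of same-numbered arrays correlated at -0.19 to 0.19, over 0.1 in 5 of 9 pairs, and those of other pairs at -0.31 to 0.16. Not every array correlated best with its own number. With the replicate number as a block, 17508, 12046 and 10993 probe sets passed in the 3 comparisons, beside 17148, 11744 and 10648 without it. Of the 20 probe sets, 16, 15 and 4 were higher, as without the block. Levels below the median have no background test here, which limits SERPING1 and the dimmer CFB and CFI probe sets. In NS siRNA it also limits the brighter CFI probe set and the dimmest of the 5 CD59 probe sets.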
